A study of Homo sapiens with 12 samples.

Results

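DOCK9 and the DOCK exchange factors related to it were followed across the 4 groups of the study. The 8 genes were DOCK1 and DOCK5 of the DOCK-A branch of the family, DOCK4 of DOCK-B, DOCK6 and DOCK8 of DOCK-C, and DOCK9, DOCK10 and DOCK11 of DOCK-D. They were chosen by gene symbol: every probe whose annotated transcript maps to one of these symbols was taken, which gave 413 probes. Probes of 20708 genes were on the array, and 18253 genes had at least 1 kept probe, that is, a probe whose signal stood well above background throughout at least 1 group. All 8 DOCK genes were among them, with 292 kept probes. DOCK9 was singled out by the study because it was low after miR-145 in these same samples. Its fall in mimic145 against cntrl is therefore given as a description, without a test. The paper also measured its signature genes, DOCK9 among them, by RT-qPCR on biological triplicates and reports their modulation there. Those measurements are not part of the array data used here.

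DOCK proteins are guanine nucleotide exchange factors. They load small GTPases such as Rac and CDC42 with GTP through a catalytic domain that is unlike the Dbl domain of the larger exchange factor family, and the GTPases in turn direct the actin cytoskeleton in spreading, protrusion and migration. DOCK-A and DOCK-B proteins act on Rac and work together with ELMO proteins, DOCK-D proteins act mainly on CDC42, and DOCK-C proteins have been described for both GTPases. In carcinoma cells the family is known mostly for its part in motility and invasion.

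The samples were cultures of MDA-MB-231, a human breast cancer cell line of mesenchymal character. In the cntrl group the cells received control mimic and control siRNA oligonucleotides, in mimic145 they received a miR-145-5p mimic, in sirnaAGO2 they received Dicer-substrate siRNA against AGO2, and in sirnaAGO2+mimic145 they received both. The mimic was used at 5 nM and the siRNA at 500 pM for 72 h. Each group had 3 arrays from what the labels call biological triplicates of 1 line, and values are log2 intensities after quantile normalization of the 12 arrays. A gene passed a comparison where its p, adjusted over all genes, was under 0.05. RNA came from whole cultures, so fewer cells that express a gene and less RNA per cell cannot be told apart.

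The mimic was the treatment in both arms, so the mature sequence of the microRNA (RefSeq, GRCh38.p14, chr5:149430661-149430683, plus strand) is shown here 5′ to 3′ with its seed, bases 2 to 8, in capitals.
hsa-miR-145-5p: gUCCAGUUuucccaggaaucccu
The seed is the stretch through which Argonaute-bound microRNAs mostly recognise their targets, and its complement reads AACUGGA. Transcripts of the DOCK genes were not searched for it here.

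The targeted gene was checked first. AGO2, the Argonaute that carries microRNAs and can cut their targets, stood at 9.21, 9.14 and 9.01 in cntrl and at 8.35, 8.44 and 8.42 in sirnaAGO2 (log2 intensity, replicates 1 to 3). In mimic145 it stood at 9.44, 9.36 and 9.39, and in sirnaAGO2+mimic145 at 8.27, 8.35 and 8.41. Both silenced groups lay below both unsilenced groups with no overlap, as their labels say. Without the mimic, the silenced cells kept 61.0% of the AGO2 signal of cntrl (log2 difference -0.71, SE 0.08, adjusted p = 0.00491, limma), with all 19 probes lower. With the mimic they kept 48.1% of the mimic145 signal (log2 difference -1.06, SE 0.08, adjusted p = 0.000783, limma). AGO2 itself was 1.21-fold higher in mimic145 than in cntrl (adjusted p = 0.0298, limma). In silenced cells its difference with the mimic was -0.06 (adjusted p = 0.607, limma). The markers of the line, VIM, CD44, AXL, CAV1 and MSN, had 62 of 62 probes kept, and of the genes expected to be dim PGR had 0 of 9, ESR1 6 of 14, CDH1 7 of 16 and EPCAM 9 of 10, so EPCAM was not dim. Of 74 probes for markers of white blood cells and endothelium 19 were kept, among them 4 of 33 for PTPRC, against 68.2% of all probes with a gene. Some of these markers moved with the treatments. EPCAM stood at 56.3% of cntrl in mimic145 (adjusted p = 0.000902, limma), and the difference in silenced cells was -0.40 (adjusted p = 0.0508). CD14, on its 1 kept probe, was 1.29-fold higher with the mimic in cntrl cells (adjusted p = 0.0459), 2.01-fold in silenced cells (adjusted p = 0.00503) and 1.95-fold in sirnaAGO2+mimic145 against mimic145 (adjusted p = 0.00573), and PECAM1, also on 1 probe, stood at 62.4% with silencing alone (adjusted p = 0.0311). When slides were treated as a random block, the CD14 call in silenced cells stood (adjusted p = 0.0143) and the other CD14 calls (0.182 and 0.113) and that of PECAM1 (0.103) were lost. Over the 6 white cell and endothelial genes the mean log2 level ran from 7.63 to 7.98 on the cntrl arrays, 7.69 to 8.10 on mimic145, 7.52 to 7.74 on sirnaAGO2 and 7.72 to 8.23 on sirnaAGO2+mimic145. The part of these genes in the results was not tested. The share of spots well above background ran from 60.5% to 77.3% over the arrays, and no spot was saturated. Every slide held 1 array without and 1 with the mimic, always at the same positions, so slide position and mimic cannot be told apart. Silenced and unsilenced arrays lay on separate slides.

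DOCK9, also called zizimin1, is the founding member of the DOCK-D branch and a CDC42 exchange factor. It was well measured: 59 of 60 probes were kept and 54 were above background on all 12 arrays. In cntrl its level was 9.25, 9.03 and 9.18 (mean 9.15 ± 0.12, SD, n = 3). In mimic145 it was 8.26, 8.23 and 8.29 (8.26 ± 0.03). The highest mimic145 array lay below the lowest cntrl array by more than the spread of either group. The mimic145 cells held 53.9% of the cntrl level, a log2 difference of -0.89 (SE 0.08), with differences of -0.99, -0.79 and -0.89 in the 3 replicate pairs. This is the fall for which the gene was chosen.

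In AGO2-silenced cells DOCK9 lay close to the cntrl level in both groups. The paper picked its signature genes to ask about transcripts that it took as Ago2-dependent, a reading that draws on the silenced arrays too. The values in silenced cells are therefore a description as well and no independent support. DOCK9 was 9.34, 9.17 and 9.16 in sirnaAGO2 (9.22 ± 0.10) and 9.36, 8.92 and 9.05 in sirnaAGO2+mimic145 (9.11 ± 0.23). The arrays with and without the mimic overlapped. The log2 difference was -0.11, with a 95% interval from -0.30 to 0.08 and the replicate pairs gave 0.03, -0.24 and -0.11. Silencing alone left DOCK9 at 105.0% of cntrl, a log2 difference of 0.07 with an interval from -0.12 to 0.26.

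Set against mimic145, the cells that received both agents had 1.80-fold more DOCK9 (log2 difference 0.85, SE 0.08), and every sirnaAGO2+mimic145 array lay above every mimic145 array. With 1 array or 1 replicate number left out the log2 difference ran from 0.73 to 0.93. The difference between the 2 mimic effects was 0.78 (SE 0.12), with 1.02, 0.55 and 0.77 for replicates 1, 2 and 3. Both values contain the mimic145 arrays for which the gene was chosen, so they too are given without a test and are no independent support.

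**Figure D1:**
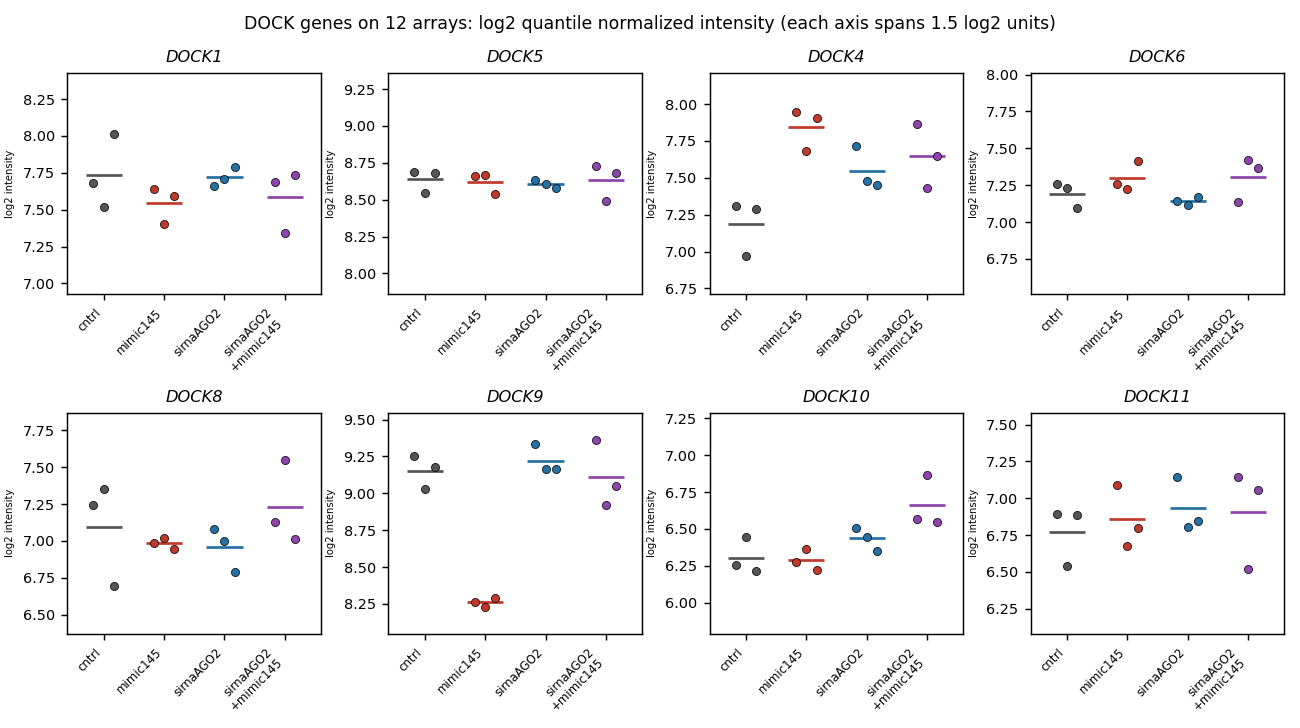
Log2 quantile normalized intensity of the 8 DOCK genes on each of 12 arrays, 1 panel per gene. Points are replicates 1 to 3 from left to right, horizontal lines are group means, and every vertical axis covers the same range of log2 units around its own centre. DOCK9 lies near 8.26 on the mimic145 arrays and above 8.9 on all others, DOCK4 is lowest on the cntrl arrays, and the other genes have overlapping groups in most panels.

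The fall ran along the whole transcript set of DOCK9 as far as the probes cover it. All 59 probes were lower in mimic145 than in cntrl, from -1.37 to -0.19 with a median of -0.91, and 58 of them were lower in each of the 3 replicate pairs. Over all kept probes of the array, 23.5% were lower in all 3 pairs. The probes fell under 4 annotated transcripts, with a mean difference of -0.91 for the 36 probes of one and -0.86 for the 21 kept probes of another. The remaining transcripts had 1 probe each, at -0.74 and -0.93. The value of -0.74 rests mostly on replicate 2, the pairs of that probe being -0.16, -2.05 and -0.0062. In silenced cells 44 of the same probes were lower and 15 higher. Their differences ran from -0.66 to 0.19 with a median of -0.06. Of the 59, 10 were lower in all 3 pairs, where 23.2% of all kept probes were. In sirnaAGO2+mimic145 against mimic145 all 59 were higher, 56 of them in all 3 pairs, against 17.9% of all kept probes. Probes of 1 gene share its transcripts and are not replicates.

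DOCK10 and DOCK11 are the closest relatives of DOCK9, and neither was called lower with the mimic. DOCK10, an exchange factor best known from lymphocytes, was faint: 15 of 56 probes were kept, and 2 of those were above background on all 12 arrays. It stood at 6.26, 6.45 and 6.22 in cntrl, at 6.27, 6.36 and 6.22 in mimic145 and at 6.51, 6.44 and 6.35 in sirnaAGO2. In sirnaAGO2+mimic145 it stood at 6.57, 6.86 and 6.55, above every array of the other 3 groups. The mimic made a log2 difference of -0.02 in cntrl cells (interval -0.19 to 0.15, adjusted p = 0.889) and of 0.22 in silenced cells (interval 0.05 to 0.39, adjusted p = 0.0950, limma). Against mimic145 the cells with both agents had 1.29-fold more DOCK10 (log2 difference 0.37, SE 0.08, adjusted p = 0.0311, limma), with all 15 probes higher. Only 3 of the 15 probes were above background on all mimic145 arrays, against 11 in each other group. Most were thus kept through groups other than mimic145, so that all 15 were higher is no support. Without the probe filter the difference was 0.27 (adjusted p = 0.161, limma). On probes above background on all 12 arrays it was 0.23 (adjusted p = 0.326, limma). The call was lost in 21 of 27 alternatives, among them 12 of the 15 that left out an array or a replicate number, and the adjusted p ran from 0.0278 to 0.381.

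DOCK11, or zizimin2, another CDC42 exchange factor, had 31 of 53 probes kept. Its level was 6.89, 6.54 and 6.88 in cntrl, 7.09, 6.68 and 6.80 in mimic145, 7.14, 6.81 and 6.85 in sirnaAGO2, and 7.14, 6.52 and 7.05 in sirnaAGO2+mimic145. Replicate 2 was the lowest in each of the 4 groups. The mimic made a difference of 0.08 in cntrl cells (interval -0.14 to 0.30) and of -0.03 in silenced cells (interval -0.25 to 0.20), and silencing one of 0.16 (interval -0.06 to 0.38). None passed, and the groups overlapped in each comparison.

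DOCK4 went the other way. DOCK4, a DOCK-B exchange factor for Rac that takes part in cell migration, was at 7.31, 6.97 and 7.29 in cntrl (7.19 ± 0.19, SD, n = 3) and at 7.95, 7.68 and 7.90 in mimic145 (7.84 ± 0.14). The groups did not overlap, and DOCK4 rose 1.58-fold with the mimic (log2 difference 0.66, SE 0.08, adjusted p = 0.000767, limma; exact two-sided permutation p = 0.1, the smallest that 3 arrays against 3 can give). The replicate pairs gave 0.64, 0.71 and 0.61. All 49 kept probes were higher, from 0.08 to 1.32, and 44 of them in all 3 pairs, against 28.2% of all kept probes on the array. Restricting the gene to its 33 probes above background on all 12 arrays gave 0.65.

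In silenced cells DOCK4 was 7.71, 7.48 and 7.45 without the mimic and 7.86, 7.43 and 7.65 with it. These arrays overlapped, and the log2 difference was 0.10 (interval -0.08 to 0.28, adjusted p = 0.426, limma). It depended on the processing, running from 0.03 to 0.22 over 27 alternatives, and passed in none of them. Silencing without the mimic moved DOCK4 to 1.28-fold of cntrl, a log2 difference of 0.36 that missed the threshold (adjusted p = 0.0509, limma). The groups did not overlap, and 48 of 49 probes were higher. All 49 were above background on every sirnaAGO2 array, against 38 on every cntrl array. The filter thus favoured probes high in sirnaAGO2, and that probe count is no support. With the kept probes limited to those above background on every array the difference was 0.30 and passed (adjusted p = 0.0386), and with an intensity trend in the fit it also passed (adjusted p = 0.0428). On top of the mimic, silencing made a difference of -0.20 (interval -0.37 to -0.02, adjusted p = 0.191). The difference between the 2 mimic effects was -0.55 (SE 0.11, adjusted p = 0.0830, limma), of the same sign in 48 of 49 probes. Only 34 of the 49 were above background on every sirnaAGO2+mimic145 array, against 49 in sirnaAGO2, so this count is no support either. Over 26 alternatives the difference ran from -0.63 to -0.33 and passed in 1, the methods' paired t-test without adjustment. The DOCK4 means in sirnaAGO2 and in sirnaAGO2+mimic145 lay between those in cntrl and mimic145.

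**Figure D2:**
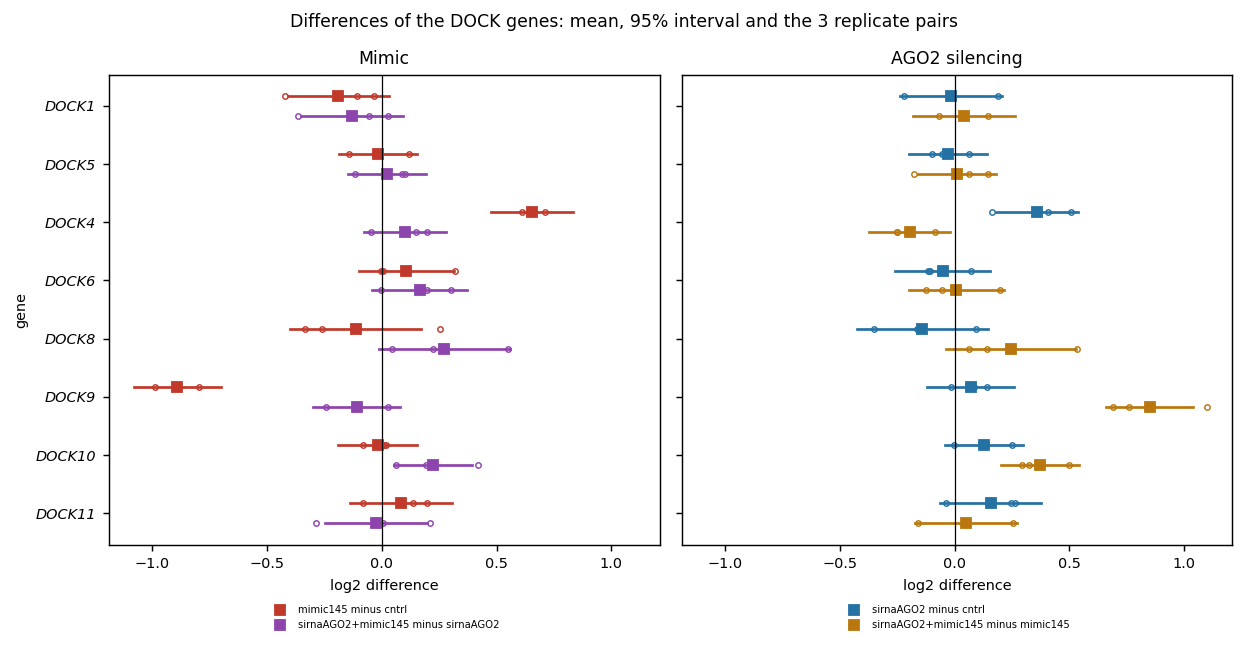
Log2 differences of the 8 DOCK genes. Squares are the fitted differences, lines their 95% intervals and open circles the 3 replicate pairs; the left panel shows the mimic in control and in silenced cells, and the right panel AGO2 silencing without and with the mimic. DOCK9 at -0.89 and DOCK4 at 0.66 stand away from 0 with the mimic in control cells, and DOCK9 at 0.85 and DOCK10 at 0.37 with silencing in mimic-treated cells. Intervals of DOCK4 with silencing alone (0.36) and in mimic-treated cells (-0.20) also leave out 0. So does that of DOCK10 with the mimic in silenced cells (0.22), but none of these passed.

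The DOCK-A genes moved little. DOCK1, or DOCK180, which pairs with ELMO to load Rac during engulfment and migration, was at 7.68, 7.52 and 8.01 in cntrl and at 7.64, 7.41 and 7.59 in mimic145. All 3 pairs were lower, but unequally, by -0.42 in replicate 3 against -0.04 and -0.11 in the others. The log2 difference of -0.19 (interval -0.41 to 0.03) did not pass (adjusted p = 0.204, limma), and in silenced cells it was -0.13 (interval -0.35 to 0.09). The 48 kept probes of DOCK1 fell under 2 annotated transcripts that differed: the 12 probes of one averaged -0.39 in mimic145 against cntrl and the 36 of the other -0.12. In silenced cells these averages were -0.22 and -0.10. Among the 12, the probes that fell most in mimic145 against cntrl (-1.02, -0.93 and -0.73) were not above background on every mimic145 array. Some of the 36 were not either. No test of that split was made.

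DOCK5, a Rac exchange factor known from osteoclasts and epithelial cells, was the steadiest of the 8. It was 8.69, 8.55 and 8.68 in cntrl, 8.66, 8.67 and 8.54 in mimic145, 8.64, 8.61 and 8.58 in sirnaAGO2, and 8.73, 8.49 and 8.68 in sirnaAGO2+mimic145. Its 46 kept probes, 44 of them above background on every array, split 26 lower and 20 higher with the mimic. All 4 differences between groups lay from -0.03 to 0.02, and their intervals stayed within -0.20 and 0.19. For DOCK5, then, a change of the size seen for DOCK9 or DOCK4 lay outside every interval.

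The DOCK-C genes did not change beyond their spread either. DOCK6, which acts on both Rac and CDC42, was at 7.25, 7.23 and 7.10 in cntrl and at 7.26, 7.22 and 7.42 in mimic145, and at 7.14, 7.12 and 7.17 in sirnaAGO2 and 7.14, 7.42 and 7.36 with both agents. Its differences with the mimic were 0.11 (interval -0.10 to 0.31) and 0.17 (interval -0.04 to 0.37), with 29 and 32 of 38 probes higher. DOCK8, the CDC42 exchange factor whose loss in people causes an immunodeficiency, had 6 of 47 kept probes, and its values rest on few measurements. It was 7.25, 7.35 and 6.69 in cntrl, 6.99, 7.02 and 6.95 in mimic145, 7.08, 7.00 and 6.79 in sirnaAGO2, and 7.13, 7.55 and 7.01 in sirnaAGO2+mimic145. The cntrl arrays alone spanned most of that range, and the differences of -0.11 (interval -0.40 to 0.17) and 0.27 (interval -0.01 to 0.56) with the mimic did not pass (adjusted p = 0.563 and 0.190, limma).

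Counted over the family, 2 of the 8 genes had an adjusted p under 0.05 with the mimic in cntrl cells, DOCK4 higher and DOCK9 lower, where 22.6% of all genes passed (11.0% lower and 11.6% higher). DOCK9 was chosen for that contrast and for a question about Ago2-dependent transcripts, so nothing is read from its place in this count or in those below. The same 2 genes had groups that did not overlap, against 28.4% of all genes. In silenced cells 0 of 8 passed by limma, where 7.28% of all genes did; DOCK10 had an unadjusted p under 0.05, as did 28.8% of all genes, and its groups did not overlap, as in 24.1%. With silencing alone 0 of 8 passed, against 2.58% of all genes, and DOCK4 had an unadjusted p under 0.05 (19.0% of all genes) and was the 1 gene without overlap (19.1%). With silencing in mimic-treated cells DOCK9 and DOCK10 had an adjusted p under 0.05, both higher, where 4.32% of all genes passed and 1.87% were higher; 14.8% of all genes did not overlap there. For the difference between the mimic effects 0 of 8 passed, against 0.0110% of all genes, that is 2 genes, and DOCK4, DOCK9 and DOCK10 had an unadjusted p under 0.05, as did 16.8% of all genes. The median log2 difference of the 8 genes was -0.02 with the mimic in cntrl cells and 0.06 in silenced cells, beside 0.01 and 0.02 for all genes. These comparisons share arrays, so their calls are not independent of each other.

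**Figure D3:**
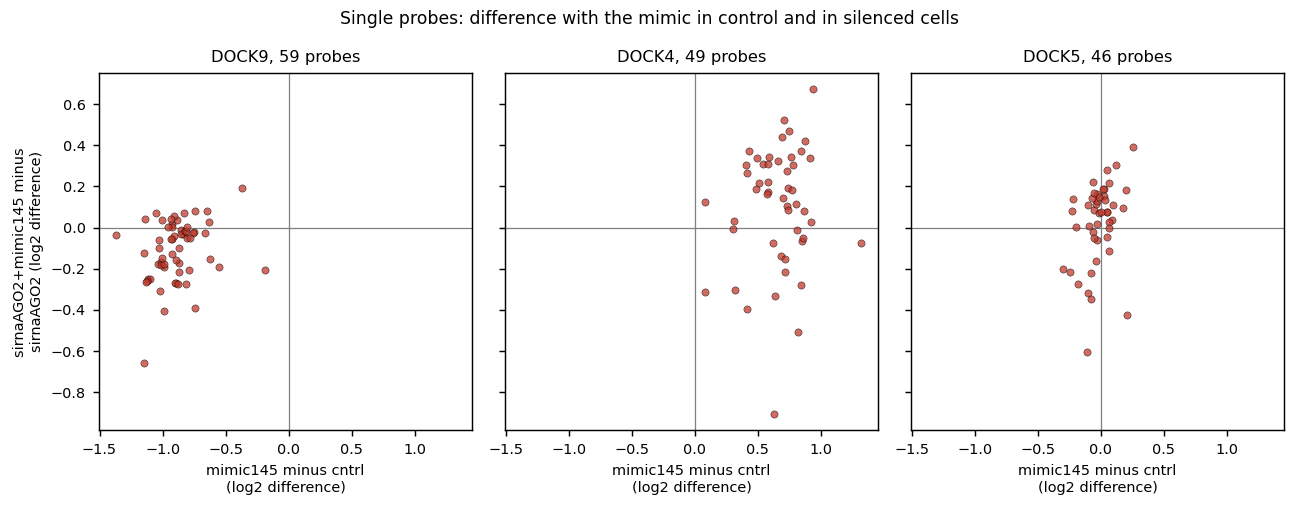
Single kept probes of DOCK9, DOCK4 and DOCK5, with the log2 difference by the mimic in control cells on the horizontal axis and in silenced cells on the vertical axis. All 59 DOCK9 probes lie left of 0 and all 49 DOCK4 probes right of it, while on the vertical axis all 3 genes straddle 0; DOCK5 straddles 0 on both.

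DOCK2 and DOCK3, outside the 8 genes, passed in none of the comparisons by limma. DOCK2, the Rac exchange factor of blood cells, had log2 differences of -0.20 with the mimic in control cells and -0.05 in silenced cells, and of 0.31 between sirnaAGO2+mimic145 and mimic145 (adjusted p = 0.0818). DOCK3, known from neurons, had mimic differences of -0.0050 in control cells and 0.06 in silenced cells, its 14 kept probes being few of 52.

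Around the DOCK genes, 94 genes of the Rac and CDC42 pathway were listed in 6 groups by role, and all had a kept probe. With the mimic in cntrl cells 29 of them passed (30.9%), 16 lower and 13 higher, where 22.6% of all genes passed; their median log2 difference was -0.01 beside 0.01 for all genes. In silenced cells 10 passed (10.6%, 6 lower and 4 higher), beside 7.28% of all genes. Of the GTPases that DOCK proteins load, CDC42 differed by -0.14 (adjusted p = 0.175) and RAC1 by -0.16 (adjusted p = 0.132, limma) in mimic145 against cntrl, and neither passed. Of 9 GTPases RAC3 fell by 0.29 on the log2 scale (adjusted p = 0.0195) and RHOU, an atypical relative of CDC42, rose by 0.43 (adjusted p = 0.0487). None of the 9 ELMO and adaptor genes passed in cntrl cells, and in silenced cells ELMO1, the partner of DOCK-A proteins, rose 1.45-fold with the mimic (adjusted p = 0.0256). ARHGDIB, which holds such GTPases inactive in the cytosol, rose 1.34-fold in cntrl and 1.23-fold in silenced cells, the 1 of 3 such genes that passed. With the slide as a random block RAC3 was lost (adjusted p = 0.130, limma), as were ELMO1 and ARHGDIB in silenced cells. RHOU and ARHGDIB in cntrl cells still passed (adjusted p = 0.0376 and 0.0341, limma).

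Of 32 effectors 4 fell and 5 rose in mimic145 against cntrl (28.1%), beside 22.6% of all genes (11.0% lower and 11.6% higher). CDC42SE2, a small CDC42-binding protein, rose 1.97-fold (adjusted p = 0.000334) and also rose 1.51-fold in silenced cells (adjusted p = 0.0154). PARD6B, a polarity protein that binds active CDC42, stood at 57.3% of cntrl (adjusted p = 0.000580), and PAK2, a kinase switched on by Rac and CDC42, at 72.7% (adjusted p = 0.00147). WASF3, which drives branched actin assembly downstream of Rac, rose 1.57-fold (adjusted p = 0.00492). In silenced cells PARD6B differed by 0.03 and PAK2 by -0.18, and neither passed.

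Of 28 Dbl-type exchange factors, the other large family that loads CDC42 and Rac, 6 fell and 5 rose with the mimic in cntrl cells (39.3%), where 11.0% of all genes fell and 11.6% rose. FGD4, a CDC42 exchange factor, stood at 56.7% (adjusted p = 0.00107) and ITSN1, a scaffold that activates CDC42 at sites of endocytosis, at 61.0% (adjusted p = 0.000177). ARHGEF6 stood at 67.9% with 3 kept probes (adjusted p = 0.0344). In silenced cells TRIO and ITSN1 fell and FGD5 rose (3 of the 28, where 7.28% of all genes passed). ITSN1 then stood at 81.8% of sirnaAGO2 (adjusted p = 0.0294), and its level with both agents was 1.27-fold that in mimic145 (adjusted p = 0.0196). TIAM1, a Rac exchange factor, had its lowest group mean in mimic145, as DOCK9 did, at 7.10 in cntrl, 6.76 in mimic145, 7.18 in sirnaAGO2 and 7.18 with both agents. It fell by 0.34 on the log2 scale in cntrl cells (adjusted p = 0.0135), differed by 0.0011 in silenced cells (adjusted p = 0.994), and was 1.34-fold higher with both agents than in mimic145 (adjusted p = 0.0232, limma).

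Of 13 GTPase-activating proteins, which turn Rac and CDC42 off, 5 fell and 1 rose in mimic145 against cntrl (46.2%), beside 11.0% of all genes lower and 11.6% higher, and their median log2 difference was -0.24 beside 0.01 for all genes. ARHGAP32 stood at 56.7% (adjusted p = 0.000717) and ARHGAP24 at 57.3% (adjusted p = 0.00193). ARHGAP17 at 71.3% and SRGAP2 at 73.3% also passed (adjusted p = 0.00450 and 0.00212). These 4 genes fell in silenced cells as well, to between 66.8% for ARHGAP32 and 76.2% for ARHGAP17 of sirnaAGO2, 30.8% of the 13 genes beside 7.28% of all genes. Of the 31 pathway genes that passed in at least 1 cell state, 8 passed in both: these 4, ITSN1, TRIO, ARHGDIB and CDC42SE2. With the slide as a random block TRIO passed in neither state and ARHGDIB in control cells only, while the others of the 8 still passed in both.

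**Figure D4:**
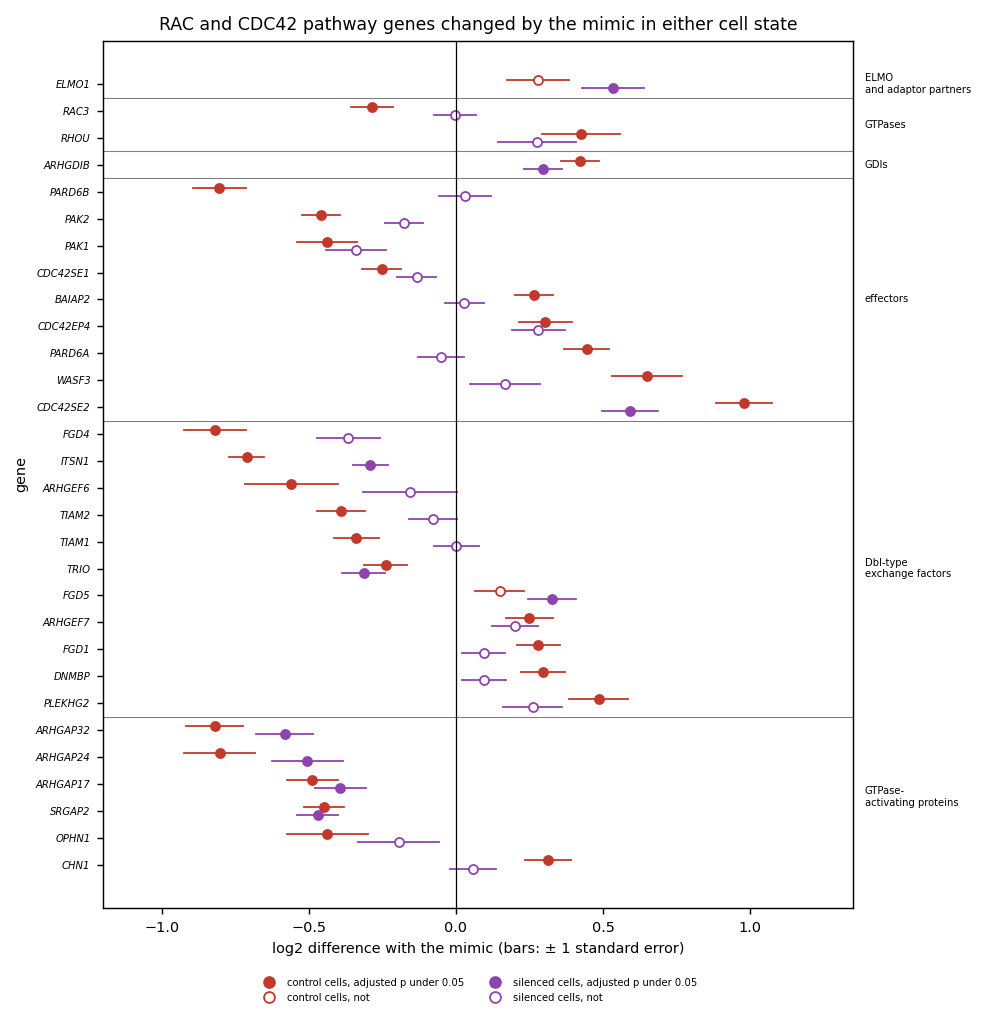
Log2 difference with the mimic for 30 of the 31 Rac and CDC42 pathway genes that passed in control or in silenced cells, grouped by role. Red is mimic145 minus cntrl, purple is sirnaAGO2+mimic145 minus sirnaAGO2, bars are 1 standard error, and filled points have an adjusted p under 0.05; 28 red and 10 purple points are filled, 8 genes having both.

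With AGO2 silencing alone 3 of the 94 pathway genes passed (3.19%), beside 2.58% of all genes, all lower: IQGAP1, a scaffold that binds active Rac and CDC42, at 52.8% of cntrl (adjusted p = 0.00802), PARD6B at 65.5% (adjusted p = 0.0167) and RHOV at 61.0% (adjusted p = 0.0464). With the mimic 4 passed (4.26%, beside 4.32% of all genes), IQGAP1 at 55.9% of mimic145 and DNMBP at 79.6% lower, TIAM1 and ITSN1 higher. Taking the slide as a random block, an alternative added after the data were seen for these lists, kept IQGAP1 and PARD6B in the first and IQGAP1 in the second, and lost RHOV (adjusted p = 0.122), DNMBP (0.172), TIAM1 (0.0714) and ITSN1 (0.113). For the difference between the mimic effects 0 of 94 passed by limma, and with the slide block PARD6B did (0.83, adjusted p = 0.0206).

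Over the 12 arrays, the genes whose levels followed DOCK9 most closely among 13329 genes with at least 3 kept probes included RFTN1 (Pearson r = 0.97), a lipid raft protein, and CBFB (r = 0.96), the partner of RUNX factors. GNPNAT1 (r = 0.96), an enzyme of UDP-GlcNAc synthesis, and CNTN4 (r = 0.95), a neuronal adhesion protein, came next. In mimic145 against cntrl their differences ran from -0.36 for GNPNAT1 to -1.04 for CBFB. None of the other DOCK genes came near: r with DOCK9 was 0.46 for DOCK1, 0.30 for DOCK10, 0.24 for DOCK11, 0.21 for DOCK5, 0.09 for DOCK8, -0.45 for DOCK4 and -0.49 for DOCK6. The arrays fall into 4 groups of 3, so these r describe mostly the group means.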

How the data were processed

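RNA from 12 cultures was labelled with 1 dye and hybridized to SurePrint G3 Human Exon arrays, and the authors read the slides with Agilent Feature Extraction 10.7.3.1 (file headers). The deposited intensity is background-subtracted and detrended within an array but not normalized across arrays. A second deposited table holds log2 values of 217027 probes that the authors quantile normalized after raising values under 1 to 1. That table was used as an alternative, after a check that each column matched its own array best (12 of 12).

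Groups and replicate numbers came from the labels. Control spots and 304 to 462 outlier spots an array were left out. Processed intensities were floored at 1, quantile normalized and log2 transformed, as in the study's methods, and replicate spots were averaged. Transcript accessions tied 209671 (89.9%) of 233164 probes to 20708 genes. The filter kept 142929 probes whose spots were well above background throughout at least 1 group of 3 arrays. Gene values are means over kept probes.

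All 12 arrays were fitted with limma 3.58.1 (R 4.3.3), with the replicate number as a block, two-sided, Benjamini-Hochberg adjustment over 18253 genes and a threshold of 0.05. The study's methods used a paired test; arrays of the same number deviated together (18 pairs, r from 0.15 to 0.58; 36 other pairs, -0.50 to 0.20). The analysis was tested on simulated data. For single genes an exact two-sided permutation test set 3 arrays against 3. Alternatives were the scaling, background correction, source table, probe filter, probe summary, block, slide as a random block, an intensity trend, fewer arrays, the methods' paired t-test, and leaving out each array or replicate number. Figures were drawn with matplotlib 3.10.9.

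Named genes are the 8 DOCK genes, DOCK2, DOCK3, AGO2, up to 4 called genes of largest difference per pathway group and comparison, and the 5 genes closest to DOCK9; some of these are not reported here. CDC42 and RAC1 were named after their values were seen, and the plot of pathway genes shows the other called ones. The slide block on the pathway and marker lists was added after seeing the data. The genes and lists were chosen with earlier results of these data known. The number of arrays limits precision, and intensities give no read depth.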

Additional observations from a re-analysis of the deposited data

How the results depend on the processing

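The fall of DOCK9 in mimic145 against cntrl ran from -0.94 to -0.72 (log2 difference) over 27 alternatives. The gene was chosen for that fall, so its calls there, and in the comparisons that share those arrays, are no test of it. The methods' paired t-test after Benjamini-Hochberg adjustment (DOCK9 -0.89) called 0 of the 8 DOCK genes and 0 genes in every comparison. The rise of DOCK4 passed in the other 26 (0.41 to 0.73). For DOCK9 the difference with the mimic in silenced cells ran from -0.20 to -0.04, and with silencing alone from 0.04 to 0.11. The silenced arrays bore on the choice of the gene too, so that it was not called there is no test either. Of the differences called in neither analysis, 68 over 20 results changed sign in an alternative, none larger than 0.25 at first or 0.22 after.

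Without the replicate block, the call on DOCK4 stood, DOCK10 was lost, leaving 1 of the 8 with silencing in mimic-treated cells, and the calls over all genes were 1997, 78, 48 and 100 in the order mimic145 against cntrl, mimic in silenced cells, silencing alone and silencing with the mimic, beside 4121, 1328, 471 and 788 with it, and 0 for the difference between the mimic effects, beside 2. With the slide as a random block 36 and 90 genes passed for silencing alone and with the mimic, with 1 of the 8, and 30 for the difference between the effects, with DOCK9 (0.78). A slide holds the 2 arrays, without and with the mimic, that share a replicate number and a silencing state, so silenced and unsilenced arrays are compared between slides; the SE of DOCK9 was then 0.114 for silencing and 0.088 for the mimic. Of the 94 pathway genes 28, 8, 2, 1 and 1 passed with this block, beside 29, 10, 3, 4 and 0, in the order used above with the difference last; 26, 7, 2, 1 and 0 passed in both.

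With scaling by the 75th percentile, which moved the median of all genes to 0.11 in silenced cells, 2394 genes passed there, with 1 DOCK gene (DOCK10, 0.49), and 80.2% of the calls were higher, against 58.4% before; 1 DOCK gene passed with silencing after the mimic. Normexp background correction gave 2192, 828, 1185 and 150 genes for the mimic in silenced cells, silencing alone, silencing with the mimic and the difference, with 1 DOCK gene, DOCK9, in the last (0.63). The authors' table gave 2033 genes and 1 DOCK gene (DOCK10) for the mimic in silenced cells, and 33 genes with DOCK9 (0.79) for the difference. Only probes above background on all arrays gave 2091, 1117, 1390 and 291 genes in that order, with DOCK4 for silencing alone, 1 DOCK gene for silencing with the mimic and DOCK9 (0.79) for the difference. Without the filter 1 DOCK gene passed for silencing with the mimic and 5 genes for the difference. The median over probes gave 236 and 357 genes for silencing alone and with the mimic, with 1 DOCK gene in the latter. An intensity trend gave 99 genes for the difference, with DOCK9 (0.78), and 1 DOCK gene each for silencing alone and with the mimic. Fitting only the arrays compared gave 1826, 0, 235 and 0 genes and lost DOCK9 with silencing after the mimic (0.85, adjusted p = 0.212; 0 of the 8). The methods' paired t-test without adjustment gave 2601, 3187, 2216 and 1888 genes for the mimic in silenced cells, silencing alone, silencing with the mimic and the difference, with 2 DOCK genes, DOCK4 and DOCK9 (0.78), in the last; after adjustment silencing with the mimic lost DOCK9 (0.85, adjusted p = 0.370) and had 0 DOCK genes. The causes were not tested.

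Leaving out 1 array or 1 replicate number gave 1211 to 4429 genes for mimic145 against cntrl, 0 to 2291 for the mimic in silenced cells, 0 to 590 for silencing alone, 0 to 806 for silencing with the mimic and 0 to 3 for the difference. Of the 8 DOCK genes 2 passed each time in the first, 0 to 2 in silencing with the mimic, and 0 in the others. DOCK9 ran from -0.94 to -0.81, -0.20 to -0.04, 0.04 to 0.11, 0.73 to 0.93 and 0.66 to 0.90 in that order. Without all arrays of replicate 1, 2 or 3, silencing with the mimic called 0 DOCK genes. DOCK10 was also lost there without cntrl 1 or 2, sirnaAGO2 3, or any mimic145 or sirnaAGO2+mimic145 array. With 3 arrays a group, an interval that spans 0 does not show that a difference is absent, and it leaves room for any value inside it.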
